A study of Mus musculus with 24 samples.

Results

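Flavopiridol, an inhibitor of cyclin-dependent kinases, was tested on resting T helper 2 (Th2) cells on 3 of the 24 arrays of the series. These arrays held unstimulated, in vitro differentiated Th2 cells of female C57BL/6 mice given DMSO, 1 µM flavopiridol or 10 µM flavopiridol. They were chosen by cell type, stimulation state and agent, and no measured value entered the choice. The drug was given for 6 hr, while 1 label of the DMSO array names 24 hr and another 6 hr, so that the time of the control is unclear. Each array was hybridised with total RNA of the Th2 cells labelled with Cy3 and with RNA of naive CD4+CD62L+CD25-CD44lo T cells from lymph nodes and spleens of female C57BL/6 mice, the common reference, labelled with Cy5. All levels below are therefore log2 ratios of Th2 cells over naive T cells, and a change is the log2 ratio with drug minus that with DMSO, where -1 is a 2-fold lower and 1 a 2-fold higher level. The other 3 settings in which the same doses were given, namely unstimulated Th1, reactivated Th1 and reactivated Th2 cells (9 arrays), served for comparison.

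RNA polymerase II pauses shortly after it has started on most genes, and the kinase Cdk9 with cyclin T, together called P-TEFb, phosphorylates the polymerase and the factors that hold it so that elongation can go on. Flavopiridol blocks Cdk9 most strongly among its targets. Th2 cells are the CD4+ effector cells that make interleukin-4, interleukin-5 and interleukin-13 under the transcription factor Gata3. The comparison asks what the block did in Th2 cells without reactivation.

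With 1 array per condition there was no replicate and no test of the drug within these cells. The 2 drug arrays are different doses, not replicates, and share 1 control array. Changes are therefore given by size, and a gene is called lower or higher where it passed 2-fold in the same direction at both doses. Tests come only from the other 3 settings and from the contrast with them. In bulk RNA, fewer cells and less RNA per cell cannot be told apart.

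Cy3 was well above background for 52.04% of probes on the DMSO array, 37.03% on the 1 µM array and 37.22% on the 10 µM array. By gene these were 12617, 10240 and 10396 of 20022 symbols. The DMSO array lay on another of the 3 slides than both drug arrays, so that slide and drug cannot be told apart. The stand-in controls below do not separate them either. The 1 on the drug arrays' slide was of another cell type, and the other lay on another slide than the drug arrays. Added spike-in RNA stood at -0.36 on the DMSO array, 0.39 at 1 µM and 0.62 at 10 µM after the loess step that sets the bulk of each array to 0. Cy5 signals of the shared reference differed between the DMSO array and the drug arrays with an SD of 0.276 (1 µM) and 0.253 (10 µM), against a median of 0.185 over all 276 array pairs and 0.114 between both drug arrays.

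The cells carried the labels' identity. The T cell receptor chains Cd3d, Cd3e and Cd3g and the coreceptor Cd4 had log2 Cy3 levels of 13.33 to 15.14 on all 3 arrays. Gata3 was above naive cells on the DMSO array with a log2 ratio of 1.95, as were Il4 at 3.52, the interleukin-33 receptor Il1rl1 at 3.47 and the chemokine receptor Ccr4 at 3.08. Il13 was at 1.07, and Il5 and the prostaglandin receptor Ptgdr2 were not above background on that array. The Th1 factor Tbx21, above background on the DMSO array alone, had log2 ratios of -0.02, 0.06 and -0.20, and Ifng stood at 0.65 there. None of 4 natural killer cell markers was above background on any of the 3 arrays, and of 4 Th17 markers only Il17f was, on the 1 µM array. All 6 B cell markers were above background on the DMSO array and 5 on each drug array, and their summed linear Cy3 signal was 6520 with DMSO, 1470 at 1 µM and 1810 at 10 µM, with log2 ratios on the DMSO array of 4.03 for Ms4a1 and 0.41 for the defining factor Pax5. Of 5 dendritic cell markers 3 were above background with DMSO, with summed signals of 71100 with DMSO, 17400 at 1 µM and 23500 at 10 µM, and of 5 myeloid markers 2 were, and 3 on each drug array, with 18900, 7530 and 8030. Most of these sums came from Siglech, at log2 ratios of -0.33, -2.61 and -2.16, and Itgam, at -0.55, -2.89 and -2.82, both bright in the naive reference too, while Lyz2 and Cd14 were not above background. The Itgam probe had nearly the same levels as that of an unrelated gene, Hexim2, given below. The myeloid marker Csf1r went the other way from these sums, with log2 ratios of -0.42, 1.93 and 2.06 and log2 Cy3 levels of 8.30, 11.17 and 11.37. The summed signals of the CD8 T, regulatory T and erythroid markers were also higher with drug. They were 237, 183 and 242 with DMSO, 298, 307 and 372 at 1 µM, and 292, 280 and 357 at 10 µM. The part of other cells in the results was not tested.

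Of 12662 genes expressed on the DMSO array or on both drug arrays, 2243 were at least 2-fold lower at both doses, which is 17.7%, and 610 were at least 2-fold higher, which is 4.82%. At least 4-fold, 447 were lower and 93 higher, and at least 8-fold, 73 and 11. The median gene had a change of -0.31, and the quartiles lay at -0.90 and 0.18. By detection, 2052 genes, 16.2% of those expressed, were above background on the DMSO array and on neither drug array, while 45 were above background on both drug arrays and not with DMSO. Entry needed the DMSO array alone or both drug arrays, so that this filter favours losses in the count by detection.

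**Figure D1:**
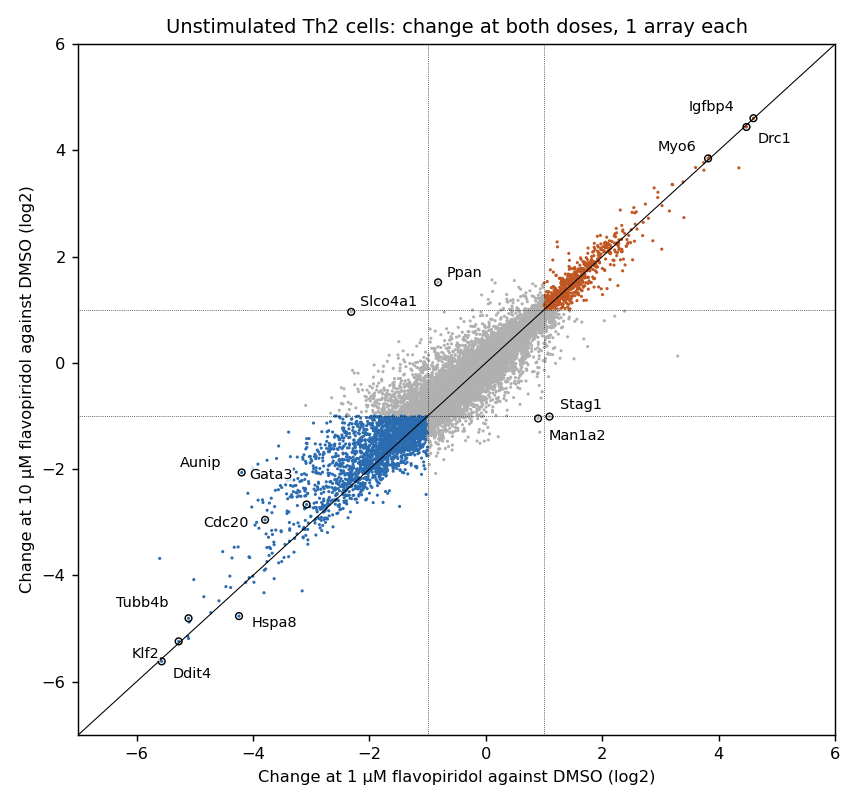
Change against DMSO (log2) at 1 µM on the horizontal and at 10 µM on the vertical axis for the 12662 expressed genes, 1 array per dose. Blue points are the 2243 genes at least 2-fold lower and orange points the 610 at least 2-fold higher at both doses, dotted lines mark 2-fold, the solid line marks equal change, and named genes are circled; most points lie near the line, with a group above it that was lower at 1 µM than at 10 µM.

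How many genes were higher depended on how the arrays were scaled. Loess sets most genes to 0 on each array. With the spike-in shift added, the median of all genes moved to -1.48, with 8553 genes lower and 45 higher. Spike-in centring gave a median of -1.86 with 9113 and 11, and median centring -1.37 with 7290 and 29. Both centrings left out the loess step, so that they differ from the main result in more than the level taken as 0. The lower share of changed genes was 99.5%, 99.9% and 99.6% in this order, in place of 78.6%. Every statement that a gene was higher or stayed near its DMSO level is relative to the bulk of genes, unless it says that the gene was so under the spike-in scalings too. Replacing the DMSO array hardly moved the counts. With the unstimulated Th2 array given 50 nM of the bromodomain inhibitor JQ1 for 6 hr as the control, which is itself drug treated, 2187 genes were lower and 728 higher. With the unstimulated Th1 DMSO 24 hr array, of another cell type but on the slide of the drug arrays, 2233 were lower and 610 higher. Like totals can hold different genes: of 17 Th1 identity genes 3 were lower against the DMSO array and 15 against this Th1 array.

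**Figure D2:**
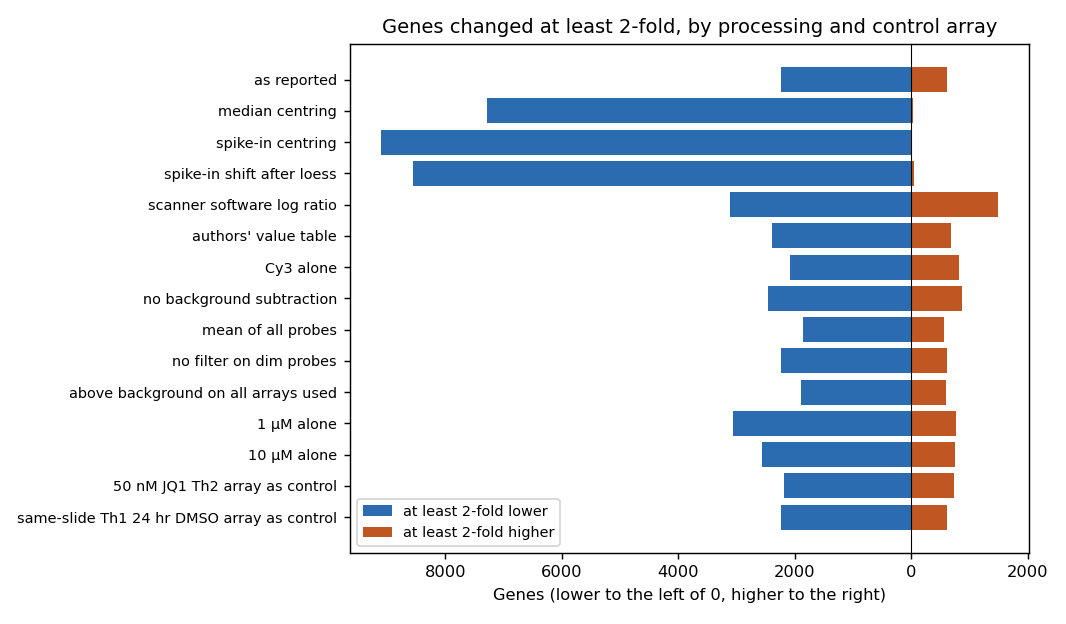
Number of genes at least 2-fold lower (left of 0) and higher (right of 0) at both doses, or at 1 dose where named, for each way of processing and each control array. The count of lower genes was between 7290 and 9113 where arrays were set to spike-ins or to their median, and the count of higher genes between 11 and 45 there.

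The 12 genes with the largest downward differences, all above background on the 3 arrays, included the 11 reported here, Ddit4, Klf2, Tnfaip8l1, Cdkn2d, Tubb4b, Ubb, Txnip, Btg1, Hspa8, Mad2l1bp and Ccr7. Ddit4, a stress-induced inhibitor of mTORC1, had a log2 ratio of 0.22 with DMSO, -5.35 at 1 µM and -5.40 at 10 µM, 48.3-fold lower on the mean of both doses. Klf2, a transcription factor of quiescent and recirculating T cells, went from -0.89 to -6.16 and -6.13, 38.3-fold lower. Ccr7, the receptor that guides T cells into lymph nodes, went from -2.21 to -6.67 and -6.42. Both drug arrays lay far from the DMSO array and close to each other in each of these genes.

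Ubb, a polyubiquitin gene that supplies free ubiquitin, had log2 ratios of 0.78 with DMSO, -3.95 at 1 µM and -3.92 at 10 µM. Hspa8, the constitutive Hsp70 chaperone, went from 0.07 to -4.17 and -4.69. Probes of Ubb, Hspa8, the beta tubulin Tubb4b and the histone genes below can also bind near-identical copies, so that their values may mix several genes.

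The other genes had different roles. Cdkn2d, an inhibitor of Cdk4 and Cdk6, had log2 ratios of 0.73 with DMSO, -4.37 at 1 µM and -4.15 at 10 µM. Txnip, an inhibitor of thioredoxin and of glucose uptake, went from 0.27 to -4.31 and -4.21, and Btg1, an antiproliferative gene, from -1.93 to -6.78 and -6.34. Tubb4b went from 2.14 to -2.97 and -2.67, Tnfaip8l1 from 1.33 to -3.79 and -3.81, and Mad2l1bp, which ends the spindle checkpoint, from 0.74 to -3.65 and -3.49. All 12 stayed at least 2-fold lower at both doses with either stand-in control and under each scaling, with mean changes of -5.88 to -4.07 against the JQ1-treated Th2 array.

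The promoters of 3 of these genes are printed because they hold the most kinds of the searched motifs among the 11. That these genes moved in the same direction is given by their choice. The windows run from 250 bases before to 50 bases after the RefSeq start of the gene (GRCm38.p6), 5′ to 3′ on the gene's strand, with the motif letters in capitals. Tubb4b lies on the minus strand at chr2:25224653-25224952, Ubb on the plus strand at chr11:62551481-62551780 and Btg1 on the plus strand at chr10:96616751-96617050.
Tubb4b: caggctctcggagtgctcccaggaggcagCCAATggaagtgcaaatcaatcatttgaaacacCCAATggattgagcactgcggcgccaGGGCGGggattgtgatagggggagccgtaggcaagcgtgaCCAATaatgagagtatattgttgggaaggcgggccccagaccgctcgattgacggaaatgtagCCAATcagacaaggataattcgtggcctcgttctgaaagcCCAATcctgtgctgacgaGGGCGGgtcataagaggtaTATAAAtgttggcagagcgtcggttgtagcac
Ubb: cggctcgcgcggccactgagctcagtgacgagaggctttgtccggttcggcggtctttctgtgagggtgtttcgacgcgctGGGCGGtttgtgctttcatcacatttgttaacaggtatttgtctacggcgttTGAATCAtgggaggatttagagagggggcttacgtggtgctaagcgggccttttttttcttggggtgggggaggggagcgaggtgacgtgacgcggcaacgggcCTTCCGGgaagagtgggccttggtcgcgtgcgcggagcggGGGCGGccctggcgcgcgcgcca
Btg1: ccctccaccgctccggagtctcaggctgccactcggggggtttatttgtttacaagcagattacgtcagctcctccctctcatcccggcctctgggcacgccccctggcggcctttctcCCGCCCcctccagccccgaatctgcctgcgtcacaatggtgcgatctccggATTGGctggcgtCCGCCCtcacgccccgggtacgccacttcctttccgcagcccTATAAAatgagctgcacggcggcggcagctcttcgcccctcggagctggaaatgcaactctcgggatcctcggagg
The search covered both strands and took the TATA box as TATAAA, the NF-Y box as CCAAT, the Sp1 core as GGGCGG, the cAMP response element as TGACGTCA, the AP-1 site as TGANTCA, the NF-kB core as GGGANTTTC and the core of Ets family sites as CCGGAAG. Tubb4b held the TATA letters, 19 bases after the start, the NF-Y box at 5 places and the Sp1 core at 2. Ubb held the Sp1 core at 2 places, the AP-1 site and the Ets core. Btg1 held the TATA letters, 26 bases before the start, the NF-Y box and the Sp1 core at 2 places.

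Of the 2243 lower genes, 1813 had a promoter in the RefSeq table, with 2301 windows. GGGCGG was in 64.5% of these, against 55% of the 624 windows of the higher genes and 60.0% of the 12888 windows of all expressed genes. CCGGAAG was in 19.3%, 10.7% and 16.8%. CCAAT was in 40.5%, 36.7% and 37.9%, TATAAA in 6.91%, 9.62% and 7.80%, and TGANTCA in 4.43%, 5.61% and 5.11%. TGACGTCA was in 3.56%, 2.08% and 2.96%, and GGGANTTTC in 1.09%, 1.44% and 0.993%. Over all 32851 windows of the table GGGCGG was in 35.7% and CCGGAAG in 8.86%. These shares are descriptions of letters, with no test.

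**Figure D3:**
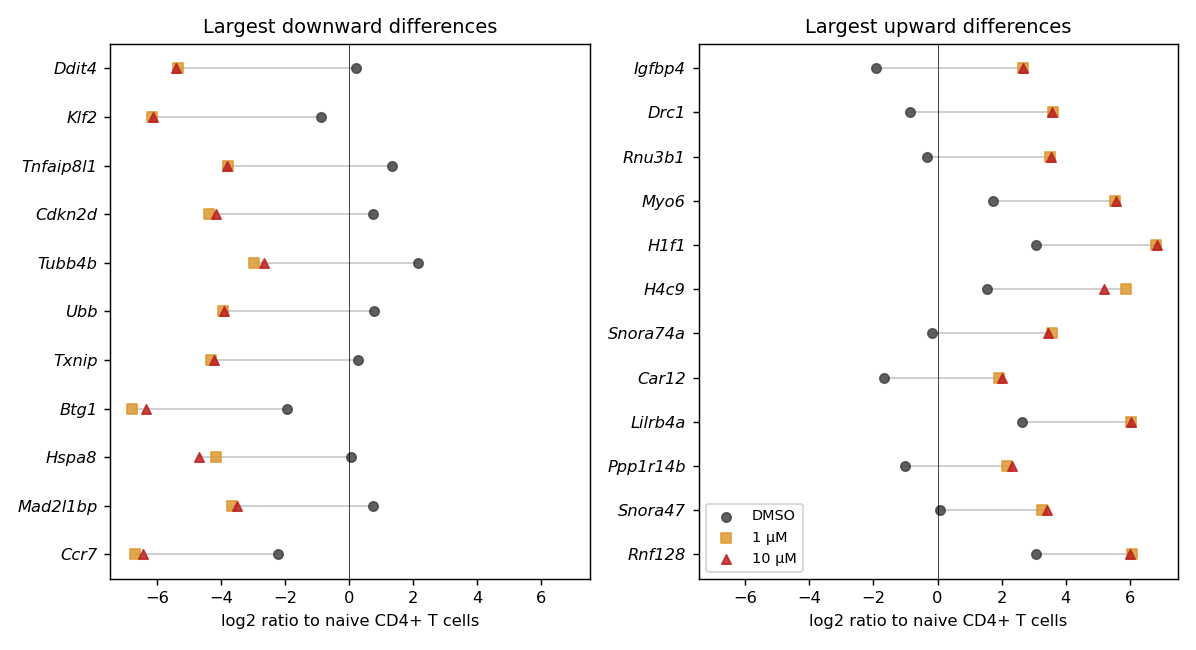
Log2 ratio to naive CD4+ T cells (horizontal axis) of 11 of the 12 genes with the largest downward (left) and the 12 with the largest upward differences (right), 1 point per array for DMSO, 1 µM and 10 µM. In each gene both drug arrays lie on 1 side of the DMSO array and close together, with downward changes reaching -4.21 or lower and upward changes 2.96 or higher at each dose.

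The 12 genes with the largest upward differences held short non-coding RNAs, histones and a mixed group of other genes. Igfbp4, which binds insulin-like growth factors and is a gene of naive T cells, had a log2 ratio of -1.93 with DMSO, 2.66 at 1 µM and 2.67 at 10 µM, 24.2-fold higher on the mean of both doses. Drc1, a subunit of the dynein regulatory complex of cilia, went from -0.85 to 3.62 and 3.58. Myo6, an unconventional myosin, went from 1.72 to 5.53 and 5.56, 14.2-fold higher. These genes ended above the level of naive cells on both drug arrays.

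Among the non-coding RNAs, the U3 RNA gene Rnu3b1, which guides processing of ribosomal RNA, had log2 ratios of -0.34 with DMSO, 3.50 at 1 µM and 3.55 at 10 µM. The small nucleolar RNAs Snora74a and Snora47 went from -0.17 to 3.58 and 3.46 and from 0.07 to 3.27 and 3.43. The linker histone H1f1 went from 3.07 to 6.82 and 6.84, and H4c9 from 1.54 to 5.89 and 5.21. For H1f1 the reference channel moved too, with log2 Cy5 levels of 6.84 with DMSO, 8.93 at 1 µM and 8.34 at 10 µM, and Cy3 levels were 9.91, 15.74 and 15.18. What moved the reference was not tested.

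Genes of surface receptors and enzymes completed the 12. Lilrb4a, an inhibitory receptor, had log2 ratios of 2.65 with DMSO, 6.03 at 1 µM and 6.05 at 10 µM. Rnf128, the ubiquitin ligase known as GRAIL that is linked to T cell anergy, went from 3.06 to 6.08 and 6.02, the carbonic anhydrase Car12 from -1.68 to 1.93 and 2.00, and the phosphatase inhibitor Ppp1r14b from -1.02 to 2.18 and 2.33. All 12 were still higher under the 3 spike-in and median scalings, where the smallest mean change was 0.80, that of Rnf128 under spike-in centring. Against the Th1 array on the drug arrays' slide Lilrb4a had a change of 0.02, and the other 11 stayed at least 2-fold higher at both doses.

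Some genes could be given only as a bound, since they were above background on 1 side alone. By Cy3 with loess, Oip5, a centromere gene, was at least 8.31-fold lower with drug, Sap30, a subunit of the Sin3 histone deacetylase complex, at least 6.26-fold, and Kbtbd6 at least 6.02-fold and Zfp473 at least 5.86-fold. These bounds do not carry over to each scaling. Under median centring the mean changes of the log2 ratio were -2.73 for Oip5, -2.64 for Sap30, -2.33 for Kbtbd6 and -2.78 for Zfp473. In the other direction Arhgdig was at least 4.04-fold higher, and Ppp1r14bl at least 2.61-fold. Their mean changes of the log2 ratio, 2.15 and 1.45 with loess, depended on control and scaling: that of Arhgdig was 0.69 with the same-slide Th1 control and 0.79 under spike-in centring, and that of Ppp1r14bl 0.26 under spike-in centring and 0.28 with the spike-in shift. For Cd83, an activation marker, and for Krtap26-1, Tmem178b and Ly6f the Cy3 bound was above the fold of the ratios, so that no bound is given. The mean change of Cd83 was -2.82 and that of Krtap26-1 was 1.25. Tmem178b and Ly6f had mean changes of 0.99 and 0.87, which were -0.18 and -0.31 with the spike-in shift. Bounds use Cy3 alone and are open to dye bias, as no dyes were swapped.

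**Figure D4:**
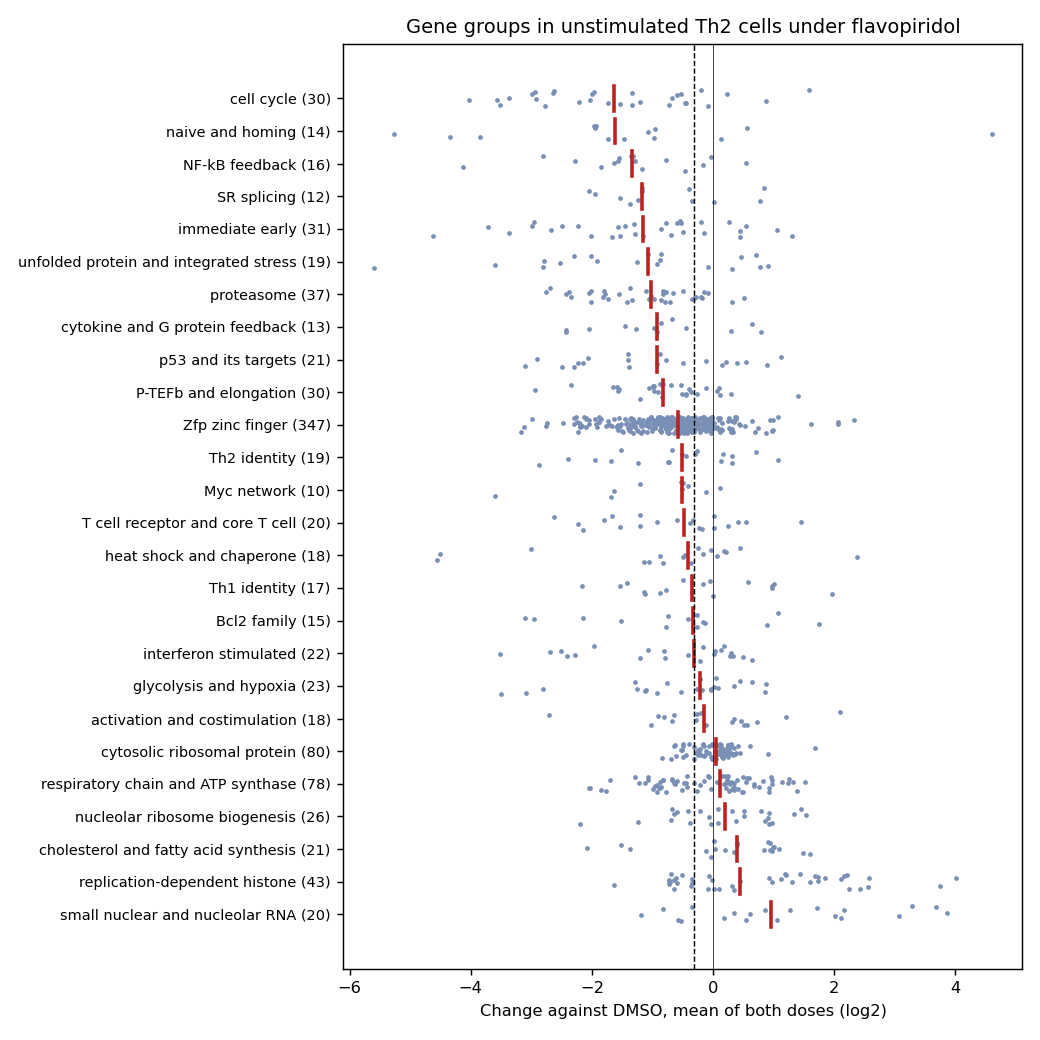
Change against DMSO on the mean of both doses (log2, horizontal axis) for each expressed member of 26 gene groups, with the number of members in brackets. Points are genes with random vertical spread, red bars are group medians, the dashed line is the median of all expressed genes at -0.31, and groups are ordered by median from cell cycle at -1.63 to small nuclear and nucleolar RNA at 0.96.

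For each group the percentages of members lower and higher with loess are set against 17.7% and 4.82% of all expressed genes, with no test of the difference. Group counts under median centring, spike-in centring and the spike-in shift stand beside 7290, 9113 and 8553 lower of all 12662 genes. The higher genes there were 29, 11 and 45, and the medians of all genes -1.37, -1.86 and -1.48. Of 30 expressed genes of P-TEFb and of elongation control, 7 were at least 2-fold lower at both doses and 0 higher (23.3% lower), and the median was -0.83. Under median centring, spike-in centring and the spike-in shift 26, 28 and 25 of the 30 were lower, with medians of -2.07, -2.56 and -2.01. Cdk9 itself had log2 ratios of 0.08 with DMSO, -1.14 at 1 µM and -0.53 at 10 µM, and its cyclin Ccnt1 -0.87, -0.64 and -0.84. The lowest members were named for the inhibitory 7SK particle, where the capping enzyme Mepce went from 0.69 to -2.43 and -2.06 and Hexim2 from -0.56 to -2.96 and -2.86. The Hexim2 probe had nearly the same levels as the Itgam probe, with log2 Cy3 of 14.16, 12.20 and 12.28 against 14.16, 12.29 and 12.33. Their Cy5 levels were 14.72, 15.16 and 15.14 against 14.71, 15.18 and 15.15. Whether each of the probes reads its named gene was not tested. The bromodomain gene Brd2 went the other way, from 0.07 to 2.10 and 0.86.

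Among signalling genes, 16 of 31 immediate early genes were lower and 1 higher (median -1.16), and of 16 genes of NF-kB and its feedback 9 were lower and 0 higher (median -1.33). These are 51.6% and 56.2% lower. Nfkbia, the inhibitor that NF-kB induces against itself, had log2 ratios of -0.11 with DMSO, -4.23 at 1 µM and -4.24 at 10 µM. Tnfaip3, a further brake on NF-kB, went from -0.25 to -2.20 and -1.97. Rela, a subunit of NF-kB, went from -0.17 to -3.05 and -1.84. The phosphatase gene Dusp2 went from -2.28 to -5.65 and -5.64, and Jund, an AP-1 subunit, from -0.93 to -3.87 and -3.95. The 1 gene counted as higher was Fos, at -4.30, -2.89 and -3.08, which was above background on the DMSO array and on neither drug array, so that its level with drug is only a bound.

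Feedback on cytokine and G protein signals followed. Of 13 genes 5 were lower (38.5%) and 0 higher, with a median of -0.93. Socs1, which restrains Jak kinases, had log2 ratios of 0.66, -1.22 and -1.53 with DMSO, 1 µM and 10 µM. Rgs2, a brake on G protein signals, went from -0.69 to -3.06 and -3.18.

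Genes of cell survival did not move as 1 group. Of 15 genes of the Bcl2 family 4 were lower (26.7%), 1 was higher (6.67%) and the median was -0.33, close to that of all genes. Mcl1, a short-lived protector from apoptosis, had log2 ratios of -0.41 with DMSO, -3.65 at 1 µM and -3.10 at 10 µM, while Bcl2, a longer-lived one, had -0.59, 0.63 and 1.68. The killer genes Bbc3 and Pmaip1 were lower too, at 0.92, -2.21 and -2.18 and at 2.57, 0.59 and 0.25. Of 21 genes of p53 and its targets 9 were lower (42.9%) and 1 higher (4.76%), with a median of -0.92, and Trp53 itself had -0.18, -0.04 and 0.10. Cdkn1a, the p53 target that stops the cell cycle, went from 4.01 to 0.92 and 2.12.

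The lowest median of the 26 groups with loess was that of the cell cycle, while NF-kB genes lay lower under median centring (-2.83 against -2.81), under spike-in centring (-3.32 against -3.31) and with the same-slide Th1 control (-2.31 against -1.94), where Th1 identity genes lay lowest at -3.16. Of 30 cell cycle genes 19 were at least 2-fold lower (63.3%) and 1 higher (3.33%), with a median of -1.63. The resting Th2 cells of the DMSO array carried more of these RNAs than naive cells, with Ccna2 at 5.97, Mki67 at 6.51 and Aurka at 4.31. With drug, Aurka, a mitotic kinase, had -0.05 at 1 µM and 0.64 at 10 µM, Cdc20, which drives exit from mitosis, went from 4.27 to 0.48 and 1.32, Ccna2, cyclin A, to 2.58 and 2.32, and Cdt1, a licensing factor of replication, from 1.96 to -1.51 and -1.70. Mki67 was at least 2-fold lower too, going from 6.51 to 5.22 and 5.15, and was still above the naive level. The 1 higher gene was E2f1, from 3.04 to 4.71 and 4.55.

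Th2 identity genes split by member. Of 19 expressed, 6 were lower (31.6%) and 1 was higher (5.26%), and the median was -0.51. Gata3 had log2 ratios of 1.95 with DMSO, -1.13 at 1 µM and -0.72 at 10 µM, and so lay below the naive level with drug. Ccr4 went from 3.08 to 0.68 and 0.69, and Irf4, a factor of effector T cells, from 1.93 to -0.18 and 0.16. With loess Il4 had 3.52, 2.93 and 3.57 and Il13 1.07, 0.75 and 0.81. Il5 had 0.09, 0.69 and 0.92, and was above background on both drug arrays and not with DMSO. With the spike-in shift 14 of the 19 genes were lower, with a median of -1.69. Il1rl1 had 3.47, 2.42 and 2.05. The higher gene was Ecm1, a secreted protein of Th2 cells, from 3.45 to 4.46 and 4.60. Gata3 had a mean change of -2.87, which was -2.53 against the JQ1-treated Th2 array and -0.76 against the Th1 array on the drug arrays' slide.

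Receptors and factors of naive and recirculating T cells had the next lowest median with loess and the DMSO array as control. Of 14 naive and homing genes 8 were lower (57.1%) and 1, Igfbp4, was higher (7.14%), and that median was -1.61. Besides Klf2 and Ccr7, S1pr1, the receptor by which T cells leave lymph nodes, had log2 ratios of -0.68 with DMSO, -4.48 at 1 µM and -4.58 at 10 µM. Il7r, the receptor for the survival cytokine interleukin-7, went from -0.97 to -3.70 and -2.10, and the naive cell factor Tcf7 from -2.09 to -4.07 and -4.06.

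The T cell receptor and its signalling genes were uneven. Of 20, 8 were lower (40%) and 1 higher (5%), with a median of -0.48. Under the other 3 scalings 14 to 16 were lower, with medians of -1.66 to -2.38. With loess the receptor chains stayed near their DMSO level, as Cd3e had -1.09, -0.87 and -0.81 and Cd3d -0.58, -0.62 and -0.51. The costimulatory receptor Cd28 went from -0.38 to -2.73 and -2.49 and the inhibitory coreceptor Cd5 from -0.96 to -4.13 and -3.07. Among 18 activation genes 1 was lower (5.56%) and 2 were higher (11.1%), with a median of -0.15: the receptor gene Tnfrsf4 went from 2.06 to -0.80 and -0.49, the interleukin-2 receptor chain Il2ra from 4.57 to 6.59 and 6.76, and the costimulator Icos from 0.95 to 2.08 and 2.22. With the same-slide Th1 control 5 of the 18 were lower and 1 higher (median -0.83), and under the other 3 scalings 8 to 13 were lower and 0 higher. Icos had a mean change of -0.02 under median centring and -0.52 under spike-in centring. For Il2ra the Cy5 level of the reference moved as well, at 7.06 with DMSO, 8.87 at 1 µM and 8.14 at 10 µM.

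Of 17 Th1 identity genes 3 were lower (17.6%) and 1 higher (5.88%), and their median of -0.34 was close to that of all genes. Gzmb, a granule protease, had log2 ratios of 2.89 with DMSO, 4.74 at 1 µM and 4.99 at 10 µM, with Cy5 levels of 6.27 with DMSO, 8.52 at 1 µM and 8.26 at 10 µM on the same arrays. The chemokine receptor Cxcr6 went from 1.47 to -0.61 and -0.80.

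Genes of protein quality control were lower in part. Of 19 genes of the unfolded protein and integrated stress responses 10 were lower (52.6%) and 0 higher (median -1.07), with Hspa5, the main chaperone of the endoplasmic reticulum, at -0.35 with DMSO, -4.07 at 1 µM and -3.82 at 10 µM and Atf4, the factor of the integrated stress response, at -0.85, -3.29 and -3.48. Of 37 proteasome genes 17 were lower (45.9%) and 0 higher (median -1.03), among them the ATPase subunits Psmc1, from 0.20 to -2.86 and -2.26, and Psmc2, from 0.23 to -2.94 and -1.99. Of 18 heat shock genes 4 were lower (22.2%) and 1 was higher (5.56%), with a median of -0.41: the Hsp40 chaperones Dnajb1 and Dnaja1 went from 0.15 to -4.86 and -3.93 and from -0.38 to -3.99 and -2.78, while the small heat shock protein Cryab went from -0.10 to 2.33 and 2.23. Hsp90aa1 had 0.80, 0.59 and 0.52.

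Splicing, zinc finger and Myc network genes follow. Of 12 SR splicing factor genes 6 were lower (50%) and 0 higher (median -1.17), with Srsf3 at 0.77, -1.05 and -1.29 and Srsf7 at -0.20, -3.16 and -1.34. Of 347 genes of the Zfp zinc finger family 76 were lower (21.9%) and 5 higher (1.44%), with a median of -0.57. The Myc network had 4 lower genes of 10 (40%) and 0 higher (median -0.51). Its repressor Mxd3 went from 4.70 to 1.00 and 1.20, and Myc had -1.18, -1.63 and -1.55.

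Ribosomal protein and respiratory chain genes had medians above that of all genes. Of 80 cytosolic ribosomal protein genes 0 were lower and 1, Rpl21, was higher (1.25%), with a median of 0.05 and quartiles of -0.20 and 0.25. Of 78 respiratory chain and ATP synthase genes 10 were lower (12.8%) and 6 higher (7.69%), with a median of 0.11. Under median centring, spike-in centring and the spike-in shift 33, 43 and 37 of the 78 were lower and 1, 0 and 0 higher. Their medians there were -0.77, -1.26 and -1.06. Under the spike-in shift 44 of the 80 ribosomal protein genes were lower and the median was -1.12, while spike-in centring gave 1 lower gene with a median of -0.21 and median centring 0 with 0.28. With the same-slide Th1 control 11 of the 80 were higher and 0 lower, with a median of 0.70. Rpl21 had a mean change of -0.22 under spike-in centring.

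Histone genes and small RNAs were the groups with the most higher members. Of 43 replication-dependent histone genes, whose RNAs end in a stem-loop without a poly(A) tail, 17 were higher (39.5%) and 1 was lower (2.33%), with a median of 0.44, with H3c1 at 1.87 with DMSO, 4.46 at 1 µM and 4.39 at 10 µM and H2ac18 at -3.0, -0.44 and -0.71. Of 20 genes in the list of small nuclear and nucleolar RNA 10 were higher (50%) and 0 lower (median 0.96). The list also took in host genes of small nucleolar RNAs (Snhg) and the protein genes Rrp9 and Snrnp70. Rnu7, the U7 RNA that serves histone RNA processing, went from -0.28 to 3.12 and 2.45, and Rmrp and Rpph1, both made by RNA polymerase III, went from -0.86 to 1.24 and 1.25 and from -1.29 to 0.86 and 0.89. Under the spike-in shift 3 histone genes were higher and 16 lower (median -0.73), and 4 small RNA genes were higher and 5 lower (median -0.22).

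Nucleolar and lipid genes depended on scaling and control. Of 26 nucleolar genes of ribosome biogenesis 3 were higher (11.5%) and 1 lower (3.85%), with a median of 0.20, against 0 higher and 4 lower (median -0.19) with the same-slide Th1 control. Dkc1, the pseudouridine synthase, had -0.56, 0.93 and 0.84 with DMSO, 1 µM and 10 µM, and Fbl, the methyltransferase of U3 particles, -0.66, 0.73 and 0.62, while Npm1, a nucleolar chaperone, went from 0.51 to -1.53 and -1.86. Of 21 genes of cholesterol and fatty acid synthesis 3 were higher (14.3%) and 2 lower (9.52%), with a median of 0.39, against 0 higher and 2 lower with the same-slide Th1 control, with Scd2 at 1.89, 3.41 and 3.59 and Sqle at 0.93, -1.61 and -0.70. Under the spike-in shift 0 genes of either group were higher, and mean changes of Dkc1 (-0.60), Fbl (-0.61) and Scd2 (-0.19) were below 0 under spike-in centring.

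Interferon and sugar metabolism genes come last. With loess, of 22 interferon-stimulated genes 8 were lower (36.4%) and 0 higher, with a median of -0.31 that equalled that of all genes. The median was 0.22 against the JQ1-treated array and -1.36, with 13 lower, against the same-slide Th1 array. Under median centring, spike-in centring and the spike-in shift 19, 22 and 14 were lower, with medians of -1.83, -2.33 and -1.49. Irf1 went from -1.42 to -5.07 and -4.80 and the GTPase Ifi47 from -1.44 to -4.22 and -4.04. Of 23 genes of glycolysis and hypoxia 3 were lower and 0 higher (13% lower, median -0.22), with the glucose transporter Slc2a1 at 1.44, -2.33 and -1.78.

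The other 3 settings gave a test on arrays that had no part in the choice of these genes. Their DMSO arrays lay on 1 slide and their flavopiridol arrays on the other slides, so that slide and drug cannot be told apart in this test either. In 9 arrays of unstimulated Th1, reactivated Th1 and reactivated Th2 cells, limma with Benjamini-Hochberg adjustment called 2561 of 12431 genes lower with flavopiridol, which is 20.6%, and 996 higher, which is 8.01%. Of the 2226 genes lower in unstimulated Th2 cells that were tested, 1325 (59.5%) were called lower and 1 higher. Of 605 higher genes, 411 (67.9%) were called higher and 0 lower. Among genes changed at least 4-fold, 349 of 446 and 73 of 93 were called in the same direction. This test rested on few arrays: without reactivated Th1 it called 0 genes, with 2206 lower and 641 higher at an unadjusted p under 0.05, and without reactivated Th2 it called 1645 lower and 398 higher.

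The direction by setting is given as a description. Of the lower genes 98.3% were below 0 in unstimulated Th1 cells, 85.8% in reactivated Th1 and 86.7% in reactivated Th2 cells, against 60.3%, 56.1% and 57.4% of all expressed genes. Of the higher genes 98.5%, 91.6% and 88.7% were above 0, against 39.7%, 43.9% and 42.6%. Of the 12 most lowered genes 9 were called lower over the other settings by limma, and Ddit4 (adjusted p = 0.176), Klf2 (0.0699) and Txnip (0.311) were not. Ddit4 had a mean change of -7.10 in unstimulated Th1, -2.95 in reactivated Th1 and 0.71 in reactivated Th2 cells. Of the 12 most raised genes 7 were called higher, and Myo6, Snora74a, Car12, Lilrb4a and Rnf128 were not, with adjusted p-values of 0.0661 to 0.939. Rnf128 had mean changes of -0.47, 0.46 and 3.08 in the same order, and Myo6 of 0.65, 0.62 and 4.04.

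Whether any gene responded differently in unstimulated Th2 cells was tested on 4 differences, 1 per setting. The limma fit called 0 of 12430 genes after Benjamini-Hochberg adjustment, with a lowest adjusted p of 0.911, and 357 had an unadjusted p under 0.05, of which 162 were higher and 195 lower in unstimulated Th2 cells. The same 4 differences have 2 residual degrees of freedom. The 357 genes are less than a 0.05 share of those tested, the share that this threshold gives where no gene differs. A fit to the 12 arrays that takes both doses as repeats, although they share a control array, called 903 genes higher and 1369 lower. For Tnfrsf4 the mean change was -2.70 in unstimulated Th2 cells and -5.10 over the other settings, and for Lilrb4a 3.40 and 0.04; neither difference passed the adjustment (adjusted p = 0.911 by limma). Tbx21, at background with drug in unstimulated Th2 cells, had a mean change of -4.04 over the other settings (limma, adjusted p = 0.0097).

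Group medians by setting are given side by side, and their differences were not tested. The proteasome median was -1.03 in unstimulated Th2 cells, -0.29 in unstimulated Th1, -0.24 in reactivated Th1 and -1.43 in reactivated Th2 cells. That of the cell cycle was -1.63, -0.72, -0.28 and -1.46, and that of Th2 identity genes -0.51, 0.12, -1.25 and -2.41. Immediate early genes had -1.16, -2.80, -2.47 and -2.25, and nucleolar genes 0.20, 0.83, -1.25 and -2.70. All genes had medians of -0.31, -0.20, -0.12 and -0.16.

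The 2 doses gave nearly the same picture. Changes at 10 µM and 1 µM differed with an SD of 0.38 over expressed genes, against an SD of the changes themselves of 1.00 at 1 µM and 0.91 at 10 µM, and the median difference was 0.03. At 1 µM alone 3054 genes were at least 2-fold lower and 764 higher, and at 10 µM 2569 and 741. Fewer genes were lower at the higher dose.

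A group of 345 genes was at least 2-fold higher at 10 than at 1 µM, and 55 were at least 2-fold lower. The 345 had a median change of -2.05 at 1 µM and -0.70 at 10 µM, and 300 of them were at least 2-fold lower at 1 µM against 142 at 10 µM. The largest differences, chosen after their values were seen, were in Slco4a1, a transporter gene, with log2 ratios of 3.82 with DMSO, 1.51 at 1 µM and 4.78 at 10 µM, and in the ribosome biogenesis gene Ppan, with -2.08, -2.90 and -0.57. Clk1, a kinase of SR splicing factors, had -0.22, -2.51 and -0.36, and the cell cycle genes Aunip, E2f8 and Cdca2 had 4.63, 0.44 and 2.57, 5.12, 1.11 and 3.14, and 4.48, 0.56 and 2.57. In these genes the lower dose went with the lower level.

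The dose differences were also there on other arrays. Both dose arrays of a setting lay on 1 slide, and the difference between them does not use the DMSO array. Of the 345 genes 318 (92.2%) were higher at 10 than at 1 µM in each of the other 3 settings, against 29.9% of all expressed genes, with medians of 0.77 in unstimulated Th1, 0.68 in reactivated Th1 and 1.19 in reactivated Th2 cells, where all genes had 0.01, 0.04 and 0.08. Slco4a1 differed by 2.71, 2.72 and 2.65 and Ppan by 2.45, 2.07 and 2.28. Of the 55 genes 53 (96.4%) were lower at 10 µM in each of the other settings, against 17.1% of all expressed genes. Among them Stag1, a cohesin subunit, had log2 ratios of 0.37 with DMSO, 1.47 at 1 µM and -0.64 at 10 µM, and Man1a2, a mannosidase of the Golgi, -0.71, 0.19 and -1.75. At least 2-fold in all 4 settings, 58 genes were higher and 14 lower at 10 than at 1 µM.

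**Figure D5:**
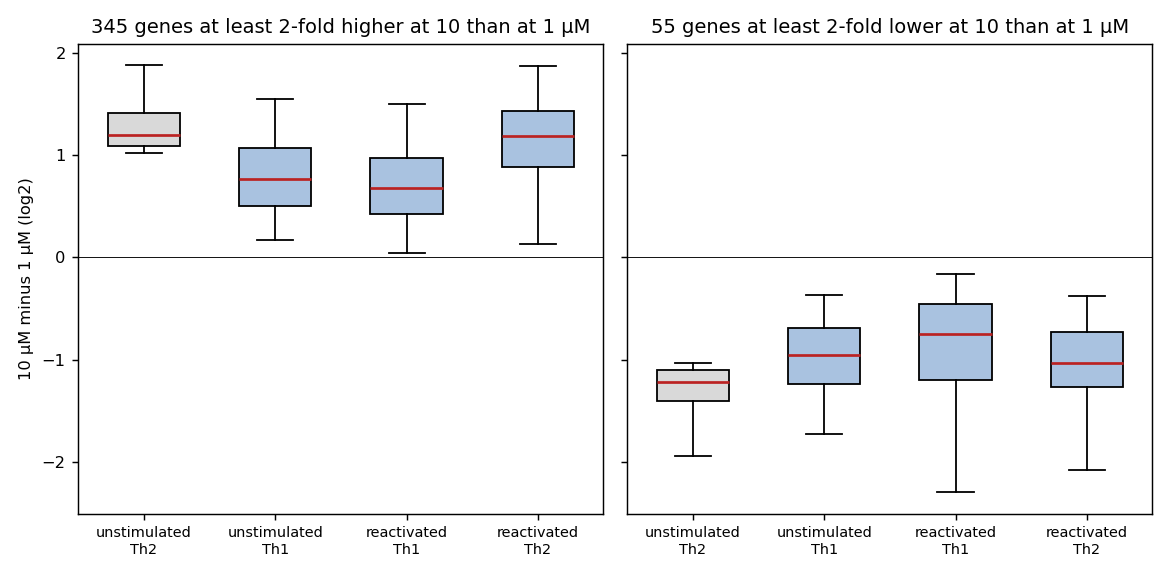
Difference between 10 µM and 1 µM flavopiridol (log2, vertical axis) in 4 settings for the 345 genes chosen as at least 2-fold higher (left) and the 55 chosen as at least 2-fold lower (right) at 10 than at 1 µM in unstimulated Th2 cells (grey). Boxes span the quartiles with the median in red and whiskers reach from the 5th to the 95th percentile; in the other settings (blue), which did not enter the choice, the medians of the 345 genes were 0.77, 0.68 and 1.19.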

How the data were processed

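Total RNA was hybridised to 24 two-colour Agilent mouse arrays, with the T helper sample in Cy3, naive T cells in Cy5 and no dye swap. The authors deposited scanner intensity values per spot (Agilent Feature Extraction 10.7.1.1), whose log10 ratio the deposited files also hold, and a table of log2 ratios. That the deposited log2 table is Cy3 over Cy5 was found by comparison with the scanner values (r = 0.981 to 0.996 across probes). The depth of an array is not a count, and the number of arrays limits the precision.

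Here intensities were corrected with normexp (offset 50) and normalised by loess within each array in limma 3.58.1 (R 4.3.3), without control spots and flagged outliers. The brightest probe stood for a gene, named through RefSeq GRCm38.p6 tables (26425 probes with 1 symbol). Genes entered when Cy3 was well above background on the DMSO array or both drug arrays. For each of the other settings the mean of both doses minus DMSO gave 1 difference, and limma tested these with Benjamini-Hochberg adjustment at 0.05. The steps were tested on simulated data.

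Named genes were the 12 largest changes each way above background on the 3 arrays, the 5 largest bounds each way, and up to 4 members of each list with its best-known markers. Some genes that this rule names are not reported here. Members and lists were chosen with earlier results of these data known. Alternatives were other scalings, sources, channels, background steps, probe rules, filters, doses, control arrays and left-out settings. The labels give 1 biological replicate, so p-values measure the spread between settings.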

Additional observations from a re-analysis of the deposited data

Results flagged for a closer look

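Some genes had changes of opposite direction in unstimulated Th2 cells and in a reactivated setting on every drug array, and these opposite directions were not tested by themselves. The RNA polymerase I subunit Polr1b had a mean change of 1.54 in unstimulated Th2 cells, against -2.51 in reactivated Th1 and -2.72 in reactivated Th2 cells. Dkc1 had 1.45 against -1.55 in reactivated Th2 cells, and Fbl 1.34 against -1.17. S1pr1 had -3.85 against 1.41 in reactivated Th2 cells. In unstimulated Th1 cells these genes moved in the same direction as in unstimulated Th2 cells. Their mean changes there were 1.35 for Polr1b, 2.16 for Dkc1, 1.18 for Fbl and -3.01 for S1pr1. Under spike-in centring Polr1b, Dkc1 and Fbl were below 0 in unstimulated Th2 cells too.

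A signal lay outside the named genes. Of 6323 expressed probes that the array design names only by a genome position, 525 (8.30%) were at least 2-fold higher at both doses and 239 (3.78%) lower. The 525 had median log2 Cy3 levels of 8.25 with DMSO, 10.60 at 1 µM and 10.52 at 10 µM, and 510 were above background on all 3 arrays. With drug 525 of them were higher in unstimulated Th1, 507 in reactivated Th1 and 511 in reactivated Th2 cells, and 502 were higher in all 3 of these settings, against 36.7% of all such probes tested. Of all position-named probes 6248 were above background with DMSO, 3291 at 1 µM and 3161 at 10 µM, and 75 on both drug arrays and not with DMSO. With the spike-in shift 41 probes were at least 2-fold higher.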

How the results depend on the processing

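Genes lower and higher were 7290 and 29 under median centring, 9113 and 11 under spike-in centring and 8553 and 45 under the spike-in shift, and the scanner software's log ratio gave 1486 higher (67.7% of changed genes lower). Over the other 3 settings limma called 5484 lower and 118 higher, 8270 and 13, and 5184 and 48 under the same 3 scalings. Leaving out 1 setting gave 0 to 3049 lower and 0 to 1385 higher genes: 0 and 0 without reactivated Th1 (lowest adjusted p 0.112), 1645 and 398 without reactivated Th2. For the difference from the other settings, limma called 2272 genes in the 12-array fit that takes doses as repeats and 0 elsewhere, which says nothing of stability with 2 residual degrees of freedom. Its unadjusted counts were 208 to 802 over the processing alternatives and 47 to 2042 over the left-out settings. The cause of these moves was not tested.

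Directions reversed for Icos (-0.02), Dkc1 (-0.10), Fbl (-0.11), Lss (-0.02) and Srebf2 (-0.57) under median centring. Under spike-in centring they reversed for Gzmb (-0.24), Icos (-0.52), Dkc1 (-0.60), Fbl (-0.61), Polr1b (-0.44), Scd2 (-0.19), Lss (-0.52), Srebf2 (-1.07), Foxp3 (-0.31), Hba-a1 (-0.28) and Rpl21 (-0.22), and under the spike-in shift for Srebf2 (-0.09) and Foxp3 (-0.13). Tmem178b (-0.18) and Ly6f (-0.31) were below 0 under the spike-in shift, as under spike-in centring (-0.18 and -0.13). With the Th1 array on the drug arrays' slide as control, Ly6f had -0.96, Ms4a1 0.52 and the B cell markers a median of 0.45 above that of all genes. Background signal limits the genes seen only with DMSO, whose levels with drug are bounds. Drug minus DMSO was taken within each setting. No paired analysis by replicate number was possible because each condition had 1 array.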
